A study of Mus musculus with 2 samples.

Results

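The genes described here are 9 interferon-stimulated genes of the mouse, Isg15, Ifit1, Ifit3, Irf7, Ifi27, Rsad2, Oasl1, Usp18 and Bst2. All were read in cells from tumours of the pancreas, with no further choice of tumour cells by RNA. They were taken by symbol from the gene rows of both count matrices, so they are 9 of 55361 features, and all 9 were found once. The tumours came from KPFRR mice, which carry Pdx1-Flp and the allele Trp53frt/frt, together with Rosa26FSF-creER and the reporter Rosa26mTmG. The Pdx1 promoter drives the Flp recombinase in pancreas cells, so that Flp removes Trp53 there. Both groups share this genotype, and the labels give neither the animals' age, their number per library, nor a treatment. The whole-tumour library (sub population "whole") and the CD9hi library (cells sorted for high levels of the tetraspanin CD9) stand for 1 group each. With 1 library a group there was no replicate, so differences lack a replicate check and no test was made.

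Values are unique molecular identifier (UMI) counts, 1 for each captured RNA molecule, from the 3′ ends of transcripts. A barcode was kept as a cell if it had 500 or more detected genes, 1000 or more UMIs, at most 20% mitochondrial UMIs and no UMI of the leukocyte gene Ptprc. This left 2537 whole-tumour cells with 46093573 UMIs and 5062 CD9hi cells with 119049556 UMIs, at median depths of 17704 and 21809.5 UMIs per cell. Levels are counts per 1000000 UMIs (CPM) of the UMIs summed over cells, and intervals are 95% intervals that cover counting error only, not the larger spread from cell to cell. Cd9 RNA was at 1276 and 2371 CPM in that order, and the GFP reporter row was at 0 UMIs in both although the design text describes a GFP sort. Cells with at least 50000 CPM of acinar enzyme genes, which belong to the normal exocrine pancreas, numbered 382 in the whole tumour and 4 in the CD9hi library. The libraries shared 2 cell barcodes.

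Interferons are secreted proteins that bind receptors on nearly every cell. Receptor-bound kinases of the Jak family then activate a complex that holds Stat2 and Irf9 and binds a DNA element, the interferon-stimulated response element (ISRE), in front of its target genes. Interferon gamma acts through a different element, the gamma-activated site (GAS). The members cover several roles in that response. Isg15 is a ubiquitin-like protein that is attached to other proteins, and Usp18 is the enzyme that takes it off again and also damps the type I interferon receptor. Ifit1 and Ifit3 act on viral RNA, Rsad2 (viperin) makes a nucleotide that stops viral RNA synthesis, and Bst2 (tetherin) holds budding virus at the cell surface. Irf7 is a transcription factor that amplifies the production of interferon, Oasl1 limits the translation of Irf7 in the mouse, and Ifi27 is a small mitochondrial protein.

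The start sites of these genes show the shared element directly, and 5 windows are printed because they carry it. RefSeq promoter windows of GRCm38.p6, each reaching from 250 bases before to 50 bases after the start of the gene, were given for 7 of the 9 members; Usp18 and Ifi27 had no entry in that table. The ISRE core was searched as GAAANNGAAA on both strands, where it also reads TTTCNNTTTC, and overlapping matches were counted. It was found in 5 of the 7 windows, and in 3.44% of all 32851 windows of that length. In the stretches below, written 5′ to 3′ on the strand of the gene, capitals mark the core matches and 20 bases are kept on each side.
Isg15, chr4:156200855-156200916, minus strand, 3 matches: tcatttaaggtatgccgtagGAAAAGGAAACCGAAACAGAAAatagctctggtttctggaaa
Ifit1, chr19:34640765-34640833, plus strand, 2 matches: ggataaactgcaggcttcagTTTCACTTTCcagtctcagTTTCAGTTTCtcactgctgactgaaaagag
Ifit3, chr19:34583353-34583436, plus strand, 2 matches: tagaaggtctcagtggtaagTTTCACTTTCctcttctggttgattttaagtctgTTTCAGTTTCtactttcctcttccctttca
Bst2, chr8:71537567-71537622, minus strand, 2 matches: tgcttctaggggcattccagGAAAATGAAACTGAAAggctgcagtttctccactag
Rsad2, chr12:26456543-26456592, minus strand, 1 match: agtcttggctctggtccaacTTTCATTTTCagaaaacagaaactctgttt
The matches of Isg15 overlap in 1 run of 22 bases, those of Bst2 overlap in 1 run of 16 bases, and those of Ifit1 and Ifit3 stand apart. The windows of Irf7 and Oasl1 held no match to these letters, which says nothing about other starts of those genes. The GAS pattern TTCNNNGAA, which is its own reverse complement, was found in the Bst2 window and in 8.30% of all windows.

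Over the libraries as a whole, 7 of the 9 members had a higher CPM among CD9hi cells, and Ifi27 and Oasl1 had a lower one. Of the 8 members with a mean of at least 5 CPM over the libraries, 5 were at least 1.5-fold higher in the CD9hi library, 2 were at least 1.5-fold lower and 1 was neither. Over all 9746 genes at that level, 17.1% were at least 1.5-fold higher and 13.5% at least 1.5-fold lower. The median log2 ratio of CD9hi over whole tumour was 0.13 for all genes. Ifit1, Ifit3 and Irf7 reached the minimum only through their CD9hi level and Oasl1 only through its whole-tumour level, and Rsad2 did not reach it. The count of members is therefore a description, and nothing is read from it.

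**Figure D1:**
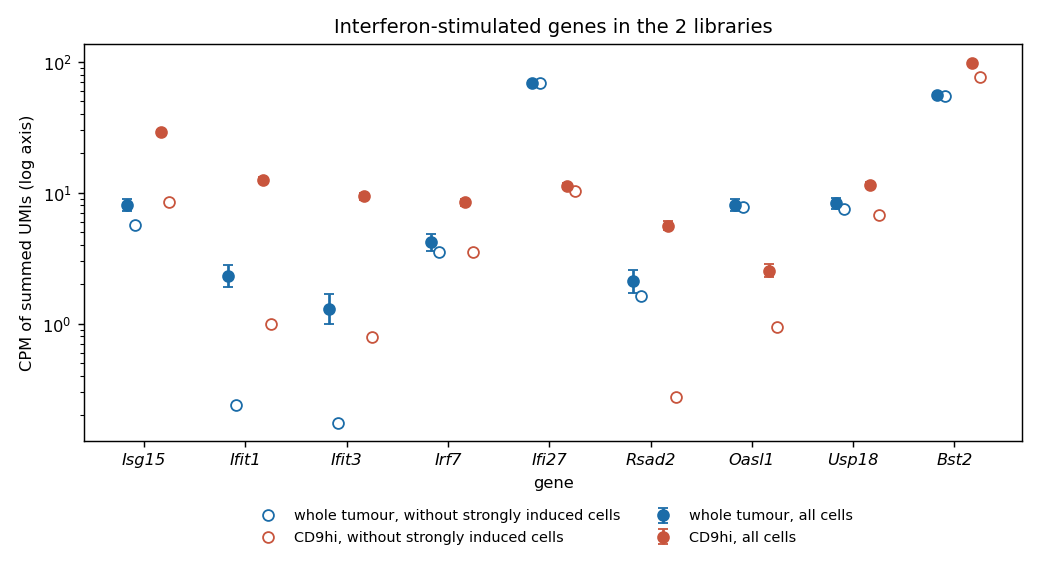
CPM of each member (log axis) in the whole-tumour (blue) and CD9hi (red) library, with filled points for all kept cells, bars for the 95% Poisson interval and open points for the same cells without the strongly induced ones. Filled red points lie above filled blue ones for 7 members and below them for Ifi27 and Oasl1; open points of Irf7 nearly coincide at 3.51 and 3.56 CPM.

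Isg15 stood at 8.11 CPM (7.31 to 8.98) in the whole tumour and 29.3 CPM (28.4 to 30.3) among CD9hi cells, a log2 ratio of 1.85 (1.70 to 2.01). Ifit1 stood at 2.32 CPM (1.90 to 2.81) and 12.5 CPM (11.9 to 13.1), a log2 ratio of 2.42 (2.14 to 2.72). Ifit3 had the lowest whole-tumour level of the 9, at 1.30 CPM (0.993 to 1.68), against 9.41 CPM (8.86 to 9.98) among CD9hi cells, a log2 ratio of 2.84 (2.48 to 3.25). These 3 genes thus differed most in the CD9hi direction. The 3′ end of Ifit3 is not unique: 25.1% of the 30-base words in the last 500 bases of the Ifit3 transcript also occur in its neighbour Ifit3b, so its counts are uncertain.

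The factor Irf7 reached 4.19 CPM (3.62 to 4.82) in the whole tumour and 8.44 CPM (7.93 to 8.98) among CD9hi cells, a log2 ratio of 1.01 (0.79 to 1.24). Bst2, a protein of the cell surface, was the highest member of the CD9hi library at 98.3 CPM (96.6 to 100.1), against 55.9 CPM (53.7 to 58.1) in the whole tumour, a log2 ratio of 0.82 (0.75 to 0.88). Usp18, at 8.33 CPM (7.52 to 9.21) and 11.5 CPM (10.9 to 12.1), differed by less than 1.5-fold, with a log2 ratio of 0.46 (0.30 to 0.63). Rsad2 counted 97 UMIs in the whole tumour and 667 in the CD9hi library, which is 2.10 and 5.60 CPM. Its log2 ratio of 1.41 (1.10 to 1.74) dropped to 0.99 without the cell that held most member UMIs in each library.

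Ifi27 and Oasl1 went the other way. Ifi27 was the highest member of the whole tumour at 69.2 CPM (66.8 to 71.7) and stood at 11.2 CPM (10.6 to 11.9) among CD9hi cells, a log2 ratio of -2.62 (-2.72 to -2.53). Oasl1 stood at 8.09 CPM (7.29 to 8.96) and 2.54 CPM (2.26 to 2.84), a log2 ratio of -1.67 (-1.90 to -1.45). Both are taken up again below by the cells that carried them.

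The members were not spread evenly over cells. In the whole tumour 29.7% of cells had no UMI of any member and 38.7% had a UMI of exactly 1 member, and in the CD9hi library these shares were 39.4% and 43.4%. A UMI of all 9 was found in 3 whole-tumour and 13 CD9hi cells, all of them strongly induced by the rule given below. The 26 whole-tumour cells with most Isg15 UMIs, 1% of all cells, held 61.8% of them, and the 51 such CD9hi cells held 59.9%. Each gene's own highest 1% of cells held 88.6% of Ifit1 UMIs in the CD9hi library, and 75.3% and 97.6% of Rsad2 UMIs in the whole tumour and the CD9hi library. In the whole tumour fewer cells than that 1%, 20 in all, had any Ifit1 UMI. Ifi27, with 10.8% and 29.4%, and Bst2, with 15.8% and 23.2%, were spread most widely in each library.

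After each cell was thinned to 5000 UMIs, which left out 163 whole-tumour and 110 CD9hi cells, the variance of a gene's UMIs over cells was compared with their mean. The ratio was at least 1.5 for 6 of 9 members in the whole tumour and for all 9 in the CD9hi library. Among all genes within the members' range of levels, 4.92% in the whole tumour and 5.74% in the CD9hi library reached that ratio. The highest member values were 5.54 for Isg15 in the whole tumour and 18.4 for Rsad2 in the CD9hi library, where 1 cell with 203 of the 667 UMIs carried much of it. The median ratio of those genes was 1.05 in both libraries.

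The share of cells with a UMI ranged from 0.591% for Ifit3 to 45.4% for Ifi27 in the whole tumour and from 1.32% for Rsad2 to 52.6% for Bst2 in the CD9hi library. At 5000 UMIs per cell, Ifi27 was found in 24.2% of whole-tumour cells (22.5 to 26.0) and 4.81% of CD9hi cells (4.23 to 5.44), and Bst2 in 18.4% (16.8 to 19.98) and 23.4% (22.3 to 24.7). Free RNA in the droplets can place UMIs in any cell. In the whole tumour the acinar-gene cells, at a median of 17638.5 UMIs, had a UMI of Ifi27 in 27.4% and of Bst2 in 20.5% when thinned, no lower than the shares over all cells. Whether acinar cells make these RNAs themselves was not tested, so for Ifi27 and Bst2 these shares are not read as expression by each such cell. Isg15 was found in 2.02% of thinned whole-tumour cells and 1.39% of acinar-gene cells, and Oasl1 in 2.95% and 1.94%.

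A small set of cells was high in several members at once. Cells were called strongly induced when Isg15, Ifit1 and Ifit3 together reached 500 CPM and at least 2 of the 3 had a UMI. By this rule 9 of 2537 whole-tumour cells were strongly induced, 0.355% (0.162 to 0.672, exact Clopper-Pearson), and 95 of 5062 CD9hi cells, 1.88% (1.52 to 2.29). Depth was similar inside and outside the set, with medians of 17087 against 17708 UMIs in the whole tumour and 21939 against 21803 in the CD9hi library. The cells just inside the limit had 526 and 540 CPM of the 3 genes. The highest cells outside it had 1415 and 1217 CPM, all of it Isg15. Of the cells outside the set, 94.4% in the whole tumour and 92.6% in the CD9hi library had no UMI of the 3 genes at all. Cells with at least 100 CPM of the 3 genes that did not meet the rule were 1.42% and 3.14% of all cells.

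**Figure D2:**
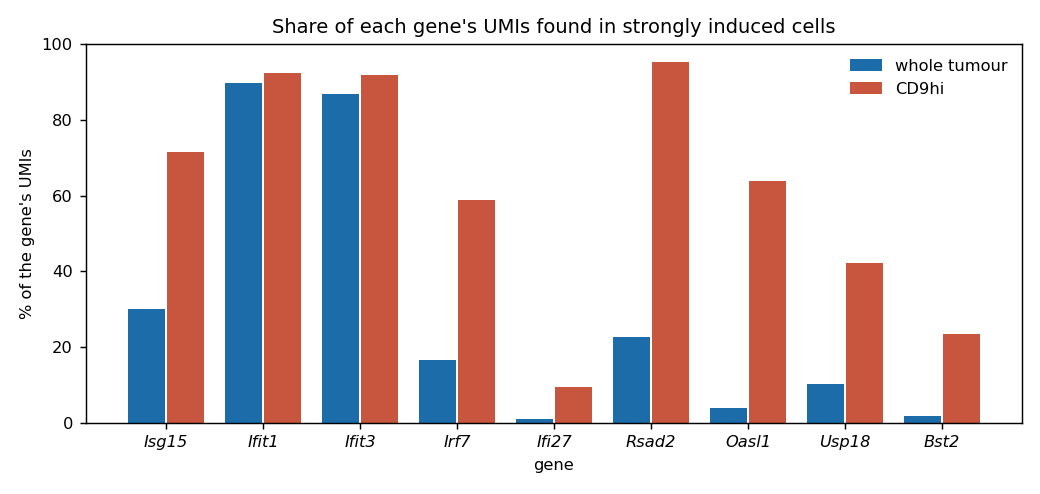
Bars give, from 0 to 100%, the share of each member's UMIs that lay in strongly induced cells of the whole tumour (blue, 9 cells) and the CD9hi library (red, 95 cells). Rsad2 went from 22.7% to 95.2% and Oasl1 from 4.02% to 63.9%, whereas Ifit1 and Ifit3, 2 of the 3 selecting genes, were above 86% in both.

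These cells held different shares of each member. The 95 CD9hi cells, 1.88% of all, held 95.2% of Rsad2, 63.9% of Oasl1, 58.7% of Irf7, 42.2% of Usp18, 23.6% of Bst2 and 9.42% of Ifi27 UMIs. The 9 whole-tumour cells held 22.7% of Rsad2, 16.6% of Irf7, 10.2% of Usp18, 4.02% of Oasl1, 1.67% of Bst2 and 0.940% of Ifi27 UMIs. Without these cells the library comparison changed. Isg15 then stood at 5.70 CPM for whole-tumour and 8.54 CPM for CD9hi cells, a log2 ratio of 0.58 (0.38 to 0.78) in place of 1.85. Irf7 stood at 3.51 and 3.56 CPM, a log2 ratio of 0.02 (-0.25 to 0.29), and Usp18 at 7.51 and 6.77 CPM, a log2 ratio of -0.15 (-0.33 to 0.04). Rsad2 turned from higher to lower, with 75 UMIs or 1.63 CPM in the whole tumour against 32 UMIs or 0.274 CPM among CD9hi cells, a log2 ratio of -2.56 (-3.22 to -1.96). With the minimum of 5 CPM applied again, 0 members were at least 1.5-fold higher and 1, Ifi27, was lower. Other members left the count through the minimum alone: Ifit1 still stood at 0.240 against 0.985 CPM, a log2 ratio of 1.98 (1.15 to 3.08), and Ifit3 at 0.174 against 0.788 CPM, a log2 ratio of 2.10 (1.14 to 3.43). Oasl1, at 7.80 against 0.934 CPM, had a log2 ratio of -3.06 (-3.38 to -2.75).

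Members that had no part in choosing the cells were still much higher in them. In the CD9hi library Irf7 stood at 255 CPM in strongly induced and 3.56 CPM in other cells, a log2 difference of 6.16 (5.98 to 6.35), with a UMI in 83 of 95 cells. Usp18 stood at 249 and 6.77 CPM, a log2 difference of 5.20 (5.04 to 5.36), with a UMI in 85 of 95 cells. Rsad2 stood at 274 and 0.274 CPM, a log2 difference of 9.95 (9.45 to 10.5), but with a UMI in only 42 of 95 cells. Oasl1, at 83.4 and 0.934 CPM, had a UMI in 48 of 95 cells. Bst2, at 1192 and 76.7 CPM, had a UMI in each of the 95 cells, with 1 to 140 UMIs and a median of 23. Ifi27 was the least different of the 6, at 54.4 and 10.4 CPM, a log2 difference of 2.40 (2.11 to 2.66).

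In the whole tumour, too, Rsad2 differed most and Ifi27 least of these 6 members. Irf7 stood at 192 CPM in the 9 strongly induced cells and 3.51 CPM in the others, Usp18 at 234 and 7.51 CPM, and Rsad2 at 132 and 1.63 CPM. Oasl1 stood at 89.9 and 7.80 CPM, Bst2 at 258 and 55.1 CPM, and Ifi27 at 180 and 68.8 CPM. All 6 members were more than 1.5-fold higher in the strongly induced cells of both libraries. In the CD9hi library 13.5% of the 9752 measured genes were at least that much higher and 4.32% at least that much lower. No such share is given for the whole tumour. Irf7 and Rsad2 in both libraries, and Oasl1 in the CD9hi library, were under 5 CPM outside the set. These counted as measured only through the set and so had to be higher there. Usp18, Bst2 and Ifi27 were above 5 CPM outside the set in both libraries. Set side by side, the strongly induced cells of the libraries had similar levels of Usp18 (234 and 249 CPM) and Oasl1 (89.9 and 83.4 CPM), while Bst2 was at 258 and 1192 CPM. With 9 cells and 43 Bst2 UMIs in the former, this contrast rests on few molecules.

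**Figure D3:**
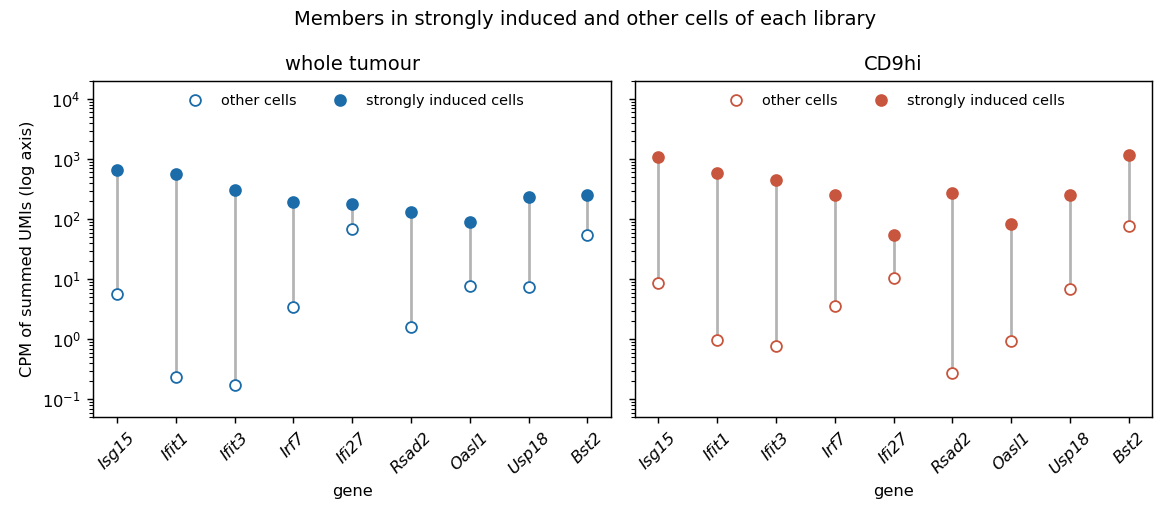
CPM of each member (log axis) in strongly induced (filled) and other (open) cells of the whole tumour at left and the CD9hi library at right, joined by a line per gene. Ifi27 has the shortest line in both, from 68.8 to 180 CPM and from 10.4 to 54.4 CPM; Isg15, Ifit1 and Ifit3 chose the cells, so their lines are a description only.

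Single cells make the pattern concrete. The whole-tumour cell with most Isg15 had 17087 UMIs, among them 47 of Isg15, 19 of Ifit1, 22 of Ifit3, 8 of Irf7, 7 of Rsad2, 6 of Oasl1, 3 of Usp18, 7 of Bst2 and 2 of Ifi27. It had 11 Epcam UMIs, an adhesion protein of epithelial cells, and 0 of Vim, the intermediate filament of mesenchymal cells. Of the 9 whole-tumour cells, 7 had 0 Vim UMIs, 1 had 1, and the remaining cell had 78 Vim UMIs and 0 Epcam UMIs. The CD9hi cell with most member UMIs had 22863 UMIs, of which 208 were Isg15, 171 Ifit1, 91 Ifit3, 203 Rsad2 and 48 Oasl1, but 0 were Irf7, 6 Usp18 and 8 Bst2. It also had 342 UMIs of the chemokine gene Cxcl10, 131 of Ccl2, 51 of Col1a2 and 41 of Col1a1, with 0 of Epcam and 0 of Krt8. This cell, high in Rsad2 and Oasl1 without any Irf7 UMI, held 30.4% of all CD9hi Rsad2 UMIs. The next CD9hi cell by the CPM of the 3 selecting genes had 31 Isg15, 45 Ifit1, 68 Ifit3, 19 Rsad2, 7 Irf7 and 31 Bst2 UMIs.

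The choice was also turned round. Cells with a UMI of at least 3 of Irf7, Rsad2, Oasl1 and Usp18 numbered 23 in the whole tumour and 80 in the CD9hi library, and 7 and 56 of them were also strongly induced. In the CD9hi cells so chosen, Isg15 stood at 909 CPM against 12.6 CPM elsewhere, Ifit1 at 551 against 2.26 CPM and Ifit3 at 392 against 2.14 CPM. The whole-tumour values were 262 against 5.18 CPM for Isg15, 142 against 0.702 CPM for Ifit1 and 91.2 against 0.263 CPM for Ifit3. The whole-tumour cells so chosen had Ifit1 in 8 of 23 and Ifit3 in 6 of 23, whereas 58 and 55 of the 80 CD9hi cells had them. Of whole-tumour cells with a UMI of all 4 genes, 4 of 9 were strongly induced, and of such CD9hi cells, 27 of 30. Cells chosen by several detected genes were somewhat deeper, with medians of 22810 and 24041 UMIs.

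Outside the strongly induced cells, the basal level followed the epithelial or mesenchymal state of a cell in a different way for each gene. Cells were binned by their Epcam CPM (under 500, 500 to 1500, at least 1500) and their Vim CPM (under 1000, 1000 to 4000, at least 4000). The whole tumour had 1134 cells in the bin of highest Epcam and lowest Vim and 108 in that of lowest Epcam and highest Vim, and the CD9hi library had 468 and 1675. Of the 283 whole-tumour cells low in both, 240 were acinar-gene cells. The bin of Epcam 500 to 1500 and Vim under 1000 held only 36 CD9hi cells. It had the highest CD9hi level of 8 members, all but Usp18, from few molecules such as 15 UMIs of Irf7.

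Usp18 followed Epcam. In the whole tumour it stood at 1.28, 6.61 and 10.1 CPM from the lowest to the highest Epcam range, and in the CD9hi library at 3.06, 7.29 and 14.6 CPM. Both libraries thus had the same order, and it held at each Vim range. Cells high in Epcam and low in Vim had 9.74 and 18.5 CPM in the same order of libraries, against 1.36 and 3.18 CPM in cells high in Vim and low in Epcam. The log2 difference of the latter from the former was -2.62 (-5.13 to -1.27) and -2.54 (-2.88 to -2.21).

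Oasl1, Irf7 and Rsad2 of the whole tumour were highest in cells low in Vim. Oasl1 stood at 10.4 CPM in cells under 1000 CPM of Vim, 0.676 CPM from 1000 to 4000 and 0.604 CPM at 4000 or more. Irf7 stood at 4.56, 0.541 and 0.805 CPM over the same ranges, and Rsad2 at 2.20, 0.135 and 0 CPM. In the CD9hi library Oasl1 had the same order, at 2.55, 1.06 and 0.619 CPM. It was lower there than in the whole tumour only under 1000 CPM of Vim. By bin, the interval of its log2 ratio between the libraries lay below 0 in 1 of 9. Irf7 of the CD9hi library did not have this order, at 4.35, 2.80 and 3.83 CPM. Within cells of at least 1000 CPM Vim, the interval of the log2 ratio of Irf7 lay above 0 in 4 of 6 bins, and in 3 of these the whole tumour held no Irf7 UMI. It spanned 0 at Epcam under 500 and Vim 1000 to 4000, with 2.20 and 2.46 CPM and a log2 ratio of 0.01 (-1.30 to 2.10). It also spanned 0 in the bin highest in both genes, with a log2 ratio of 0.75 (-0.97 to 4.16).

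Ifi27 was lower in the CD9hi library in most bins. It stood between 25.4 and 90.0 CPM in the 9 bins of the whole tumour. Among CD9hi cells 8 bins lay between 3.19 and 13.5 CPM, and the bin of 36 cells stood at 74.5 CPM. The whole-tumour level was at least 1.5-fold higher in 8 of 9 bins, with log2 ratios from -4.14 to -1.57 in those 8. In acinar-poor bins the gap remained: in cells high in Vim and low in Epcam it was 39.9 against 13.5 CPM, a log2 ratio of -1.57 (-1.89 to -1.22). Between cell states, Ifi27 of the whole tumour stood at 39.9 CPM in cells high in Vim and low in Epcam and 77.4 CPM in the opposite bin, a log2 difference of -0.95 (-1.28 to -0.65). CD9hi cells had 13.5 CPM in both bins, but this depended on the limits. With bins at the whole-tumour medians of Epcam and Vim, the CD9hi log2 difference of Ifi27 was -0.92. Bst2 went the other way in 6 of 9 bins, where the CD9hi level was at least 1.5-fold higher. In cells high in Vim and low in Epcam it stood at 41.7 CPM for whole-tumour and 82.0 CPM for CD9hi cells, and in cells high in Epcam and low in Vim at 51.4 and 43.3 CPM.

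Isg15 had no order by bin that both libraries shared. Its whole-tumour level ran from 0.876 to 19.3 CPM, but the highest bin rested on 1 cell with 21 of its 35 UMIs. In the CD9hi library, cells high in Vim and low in Epcam stood at 6.01 CPM and cells high in Epcam and low in Vim at 3.16 CPM, a log2 difference of 0.90 (0.37 to 1.53). Basal Ifit1 and Ifit3 were near the limit of detection in the whole tumour, with 11 and 8 UMIs in all cells outside the set, and 7 and 4 of the 9 bins at 0. The CD9hi library had 115 and 92 such UMIs.

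**Figure D4:**
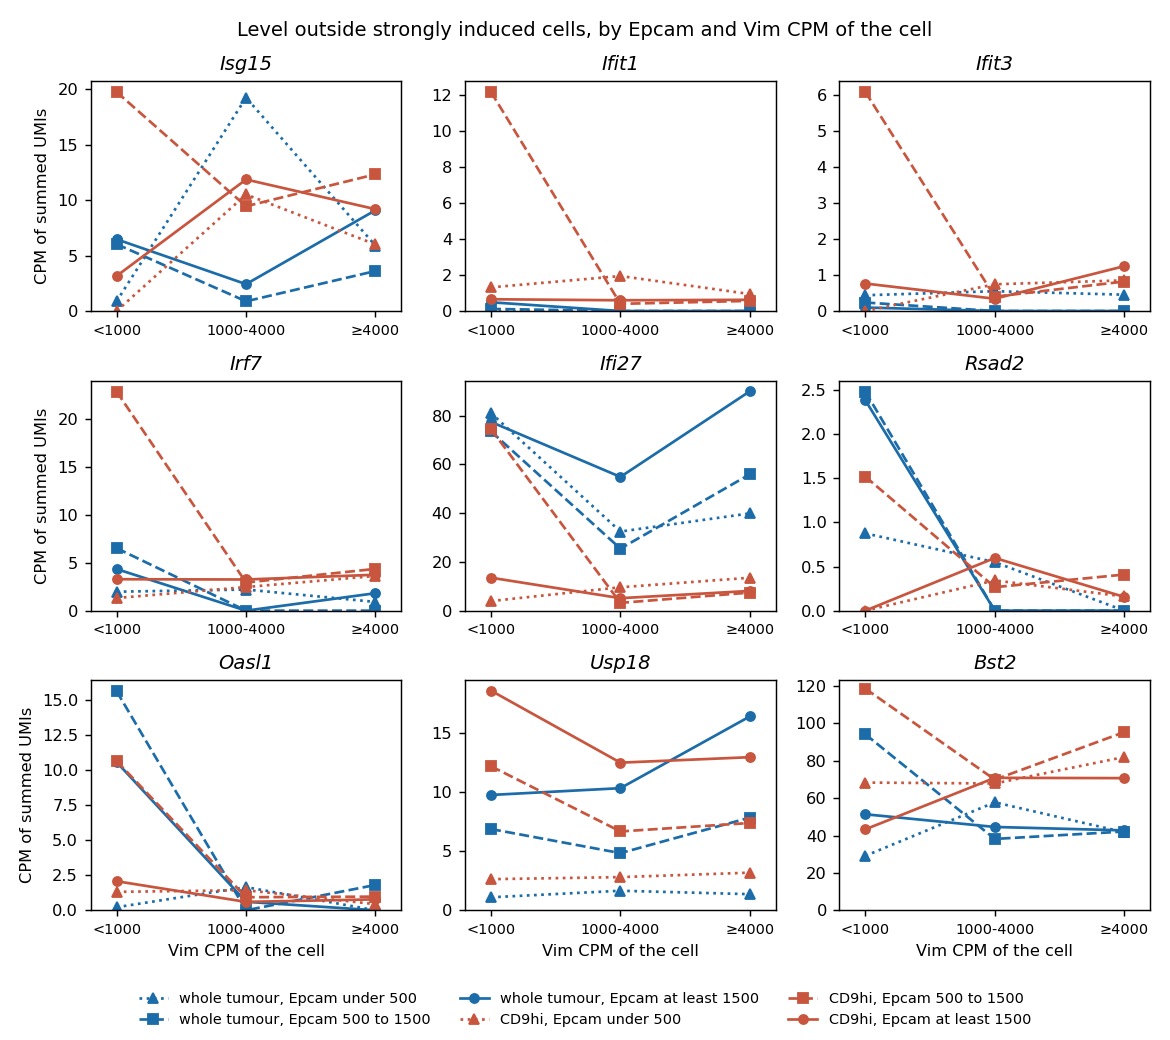
Each panel gives the CPM of 1 member, outside strongly induced cells, against the Vim CPM range of the cells, with a line for each Epcam range (triangle lowest, square middle, circle highest) in the whole tumour (blue) and CD9hi library (red). Usp18 is ordered by Epcam in both libraries, Oasl1 is highest at low Vim in the middle and highest Epcam ranges, and blue lies above red for Ifi27 except at the red square of 36 cells at 74.5 CPM.

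The strongly induced cells were themselves found in different states. Of the whole-tumour set 8 of 9 were under 1000 CPM of Vim, as were 1875 of all 2537 whole-tumour cells. The 249 cells of at least 4000 CPM held 0 strongly induced cells, with an upper Clopper-Pearson limit of 1.47%, against 0.355% of all cells. No preference for a Vim range is read from these 9 cells. In the CD9hi library the share was 2.10% (1.09 to 3.64) of cells under 1000 CPM of Vim, 0.902% (0.506 to 1.48) of those from 1000 to 4000 and 2.41% (1.87 to 3.04) of those above. By Epcam it was 2.33% in the lowest, 1.94% in the middle and 0.932% (0.482 to 1.62) in the highest range. The 95 CD9hi cells together had 626 CPM of Epcam against 1064 CPM in other cells, and 33 of them had no Epcam UMI.

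Within the CD9hi set, members differed by Vim range. The 12 cells under 1000 CPM of Vim had Oasl1 at 158 CPM and Rsad2 at 479 CPM, with a UMI of Rsad2 in 10 of 12. The 15 cells in the middle range had 19.3 and 80.5 CPM, and the 68 cells at 4000 or more had 77.5 and 262 CPM, with Rsad2 in 26 of 68. Usp18 was even over these ranges, at 204, 245 and 261 CPM. Bst2 stood at 831, 1149 and 1287 CPM. The 12 cells low in Vim also had trefoil factor genes, which mark gastric-type epithelium: Tff2 was at 10961 CPM with a UMI in 7 of 12, against 1.24 CPM in the 68 cells high in Vim. These sets are small, and 1 cell can set a value.

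Markers of other cell types were read in the same cells. In CD9hi strongly induced cells the 8 fibroblast marker genes summed to 681 CPM, from 0 to 17073 CPM per cell with a median of 0, against 135 CPM in other cells. At least 1000 CPM of them was found in 18 of the 95 cells and 130 of the other cells. Without all such cells, a choice made after the values were seen, 77 strongly induced cells were left, 1.57% of CD9hi cells, and the log2 ratio of Rsad2 between the libraries was 0.77 in place of 1.41. Leukocyte markers summed to 23.8 CPM in the set and 9.67 CPM in other CD9hi cells, with up to 1224 CPM in a cell of the set. Of these 9 markers 6 had a UMI in the set. Laptm5 and Rac2 were at 0 there, and Ptprc was at 0 by the cell filter. The 11 T, NK and B cell markers were all at 0 in the set. Plasmacytoid dendritic cells are known as strong producers of interferon, and their 7 markers summed to 290 against 124 CPM, with Siglech and Ccr9, which define them, at 0. In the whole tumour the macrophage markers summed to 587 CPM in the set and 124 CPM outside, with Lyz2, Adgre1 and Csf1r at 0. Most of that sum was Cd14, at 545 against 112 CPM, with 66 of its 91 UMIs in 1 cell, and C1qb was at 24.0 against 1.02 CPM from 4 UMIs in 1 cell. Tumour epithelial markers were at 13550 and 11798 CPM there, and at 6002 and 7307 CPM among CD9hi cells. The part of other cell types in the members' levels was not tested beyond these values.

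The ligands themselves were almost absent. Of 20 genes of type I and III interferons, 1 had a UMI in the whole tumour (5 UMIs of Ifnz) and 6 in the CD9hi library (26 UMIs, of which 15 were Ifnz and 6 Ifne), and no cell had more than 1. A single ligand UMI, of Ifnl2, lay in a strongly induced cell. Ifnb1 and Ifng had no UMI in either library, which allows levels of up to 0.0651 and 0.0252 CPM. Ligand RNA of cells that were not captured is not measured here.

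Most receptor genes were at like levels. Of 6 receptor genes, 5 were measured, 0 differed by 1.5-fold between the libraries, and 0 differed by 1.5-fold between strongly induced and other CD9hi cells. Ifnar1, of the type I receptor, was at 17.3 CPM in the set and 19.0 CPM outside it, and Ifngr1, of the interferon gamma receptor, at 88.6 and 87.6 CPM. The receptor gene below 5 CPM was Ifnlr1, of the type III receptor, at 2.21 CPM for whole-tumour and 0.714 CPM for CD9hi cells, a log2 ratio of -1.63 (-2.06 to -1.20). The kinase genes were likewise within 1.5-fold: Jak1 was at 142 and 130 CPM, Jak2 at 22.9 and 22.8 CPM, and Tyk2 at 5.62 and 7.20 CPM. Factors downstream of the kinases, whose genes are also targets, were higher in the set. Stat2 was at 34.1 against 2.48 CPM and Irf9 at 67.8 against 6.84 CPM. Of 6 measured transducers, 2, Stat2 among them, reached 5 CPM only through the set, and so had to be higher there. Of the other 4, 1 was higher, Irf9, where 13.5% of all measured genes were. Between the libraries, 1 of 5 measured transducers differed, Irf9, at 12.5 CPM for whole-tumour and 8.03 CPM for CD9hi cells. Over all genes 13.5% were lower by at least 1.5-fold.

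Among the other interferon regulatory factors, 2 of 7 measured were higher in the CD9hi set and 0 lower, where 13.5% and 4.32% of all measured genes were. The higher ones were Irf1 at 38.5 against 19.6 CPM and Irf2 at 50.1 against 30.9 CPM. Irf3, which starts the first wave of interferon production, was at 16.8 CPM in the set and 24.2 CPM outside it, short of 1.5-fold. Between the libraries Irf3 was lower among CD9hi cells, at 36.3 CPM for whole-tumour and 24.1 CPM for CD9hi cells. Of 13 measured sensors of foreign nucleic acid and their adaptors, 11 were higher in the set and 0 lower. Of these 13, 6 reached 5 CPM only through the set, and so had to be higher there. Of the other 7, at 5 CPM or more outside it, 5 were higher, where 13.5% of all measured genes were. The RNA sensors Ifih1, at 107 against 2.40 CPM, and Ddx58, at 69.1 against 4.39 CPM, were among the former 6. Their adaptor Mavs stood at 5.18 and 7.28 CPM. Between the libraries 2 of 9 sensors were lower and 0 higher in the CD9hi library, where 13.5% and 17.1% of all genes were. The 2 lower ones were Tlr3 at 8.79 and 2.93 CPM and Ifih1 at 7.29 and 4.43 CPM. Both reached the minimum of 5 CPM only through their whole-tumour level.

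**Figure D5:**
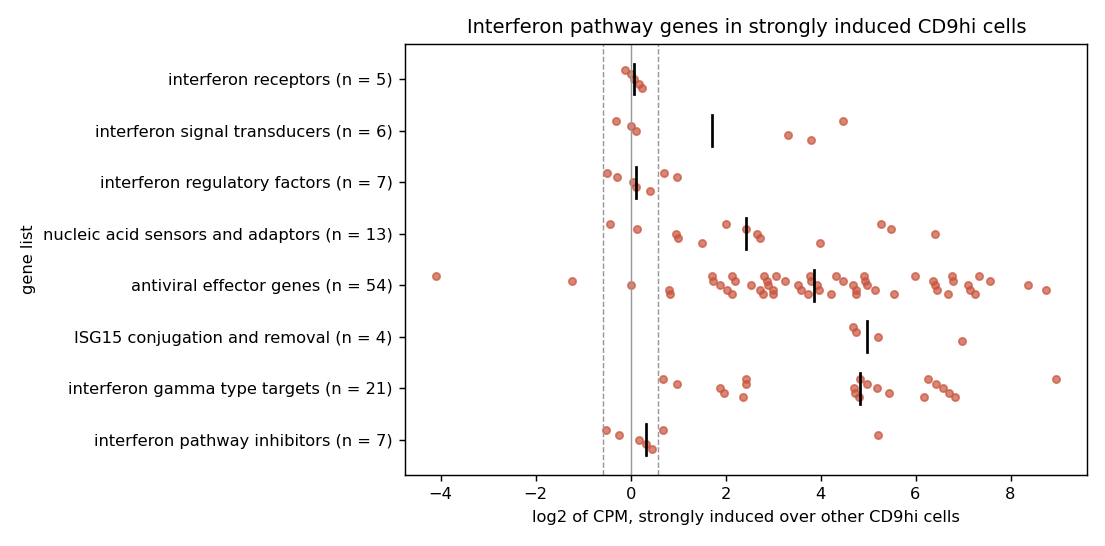
Each point is 1 measured gene of a list, placed at its log2 ratio of CPM in strongly induced over other CD9hi cells; black bars are list medians and dashed lines mark 1.5-fold. The 5 measured receptors lie within the dashed lines, and Ifitm1 is at -4.09 on the left of the antiviral effectors. Medians are a description only, since many genes reached 5 CPM only through the set.

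Many of the wider target genes were higher in the same cells. Of 74 antiviral effector genes 54 were measured, 32 of them only through their level in the CD9hi set, so that these had to be higher there. Among the other 22, at 5 CPM or more outside the set, 19 were at least 1.5-fold higher and 2 lower, where 13.5% and 4.32% of all measured genes were. The 2 lower genes of the 22 were Ifitm1, at 3.46 against 62.6 CPM, and Ifi202b, at 4.32 against 10.7 CPM. Among the 32 measured only through the set was Mx1, a GTPase against viruses, at 23.3 CPM in the set and 0.120 CPM outside it. Oasl2, at 121 and 1.37 CPM, and Ifit3b, at 201 and 0.463 CPM, were also among the 32. Ifitm2 stood at 628 CPM in both, and Ifitm3 at 1715 against 297 CPM, so the 3 Ifitm genes, which code for related membrane proteins, did not share a direction. In the whole-tumour set Ifitm1 was at 53.9 CPM against 136 CPM outside it, from 9 UMIs, all in 1 cell.

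Between the libraries the same list did not follow the members. Of 28 measured effector genes 5 were higher in the CD9hi library and 10 lower, where 17.1% and 13.5% of all genes were. The 5 higher genes are thus near the share of all genes, and the median log2 ratio of the list was -0.30. The most different were Ifi27l2b, a relative of Ifi27, at 19.7 CPM for whole-tumour and 1.29 CPM for CD9hi cells, Lgals9 at 46.3 and 16.4 CPM, Samd9l at 24.2 and 9.24 CPM, and Ifitm1 at 136 and 61.4 CPM. In the other direction Ifi204 was at 15.7 and 34.1 CPM, Mlkl at 5.55 and 8.91 CPM, Xaf1 at 4.51 and 7.17 CPM and Tor3a at 9.26 and 14.3 CPM. Xaf1 reached the minimum of 5 CPM only through its CD9hi level, and Ifi27l2b only through its whole-tumour level.

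Of 40 genes known as targets of interferon gamma, 21 were measured in the CD9hi comparison, 12 of them only through their level in the set. The other 9 were all at least 1.5-fold higher, where 13.5% of all measured genes were. Of the 19 not measured, Cd74 was at 1.30 against 2.79 CPM, and H2-Ab1 and Serpina3g, at 0.805 and 0.711 CPM outside the set, had no UMI in it. Cxcl10, among the 9, was at 630 against 22.0 CPM. The class I antigen-presenting genes H2-K1, at 486 against 90.6 CPM, and B2m, at 1425 against 364 CPM, were 2 further ones of the 9. Gbp2, a guanylate-binding protein, was at 191 against 4.41 CPM, and Psmb8, an immunoproteasome subunit, at 117 against 1.62 CPM. Both were among the 12 measured only through the set, and so had to be higher there. Most of these genes also respond to type I interferon, so the list does not tell the ligands apart. Between the libraries 3 of 12 were higher in the CD9hi library and 4 lower, where 17.1% and 13.5% of all genes were. The higher ones were Socs1, an inhibitor of the Jak kinases, at 4.38 CPM for whole-tumour and 22.1 CPM for CD9hi cells, Gbp2 at 3.93 and 8.03 CPM and Cxcl10 at 20.2 and 33.8 CPM. The lower ones were Cd74 at 12.2 and 2.76 CPM, Psmb8 at 12.7 and 3.86 CPM, H2-K1 at 238 and 98.3 CPM and H2-D1 at 270.2 and 147 CPM. Socs1 and Gbp2 reached the minimum of 5 CPM only through their CD9hi level, and Cd74 and Psmb8 only through their whole-tumour level.

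Of the genes that load Isg15 onto proteins, 2 reached 5 CPM, both only through their level in the CD9hi set. The conjugating enzyme gene Ube2l6 was at 53.1 against 1.98 CPM and the ligase gene Herc6, which takes this role in the mouse, at 28.5 against 1.11 CPM. The activating enzyme gene Uba7 fell short of 5 CPM, at 7.34 against 0.540 CPM. In the list of pathway inhibitors, 6 genes other than Usp18 were measured. Of these 1 was at least 1.5-fold higher in the set and 0 lower, where 13.5% and 4.32% of all measured genes were. Socs1 was at 35.0 against 21.9 CPM, while Socs3 was at 128 and 152 CPM. The list also holds Ifnar2, a receptor gene counted above, at 27.2 and 24.2 CPM. Between the libraries 2 of 8 listed genes were higher, Socs1 and Socs3 (75.8 and 151 CPM), and 1 lower, Ptpn6 at 11.4 and 3.90 CPM. Over all genes 17.1% were higher and 13.5% lower. Socs1 reached the minimum of 5 CPM only through its CD9hi level, and Ptpn6 only through its whole-tumour level.

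Members were also compared with each other and with all other genes over cells. Pearson correlations of log2 levels between pairs of members over 2537 whole-tumour cells were highest for Ifit1 and Ifit3, at 0.86, from 8 cells that had both, and over 5062 CD9hi cells the same pair stood at 0.75. Ifi27 had the lowest median correlation with the other 8 in both libraries, 0.06 and 0.12. The cells of a library share its depth and free RNA, and correlations over cells are a description. The genes outside the list most like the summed members, by the lower of the correlations in the 2 libraries and out of 8873 candidates, were H2-K1 at 0.36, H2-D1 at 0.35, Ifitm3 at 0.33, Lgals9 at 0.26, H2-T23 at 0.24, Psme1 at 0.21 and B2m at 0.20. Serpinb6b, Tapbp and Samd9l followed at 0.20, 0.19 and 0.18.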

How the data were processed

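UMI counts per gene and barcode were used as deposited, without normalization, per the file headers. The submitters' processing notes name GRCm39 and Cell Ranger 7.0.0, while version 6.1.2 stands in the matrices, per the file headers. The counting of intronic reads is not stated there.

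The filter on genes, UMIs and mitochondrial share removed 532 of 3082 whole-tumour and 408 of 5500 CD9hi barcodes, and the Ptprc rule 13 and 30 more. Counts were summed over cells and divided by their total (CPM). Log2 ratios had 0.5 counts added to each sum and a conditional exact binomial interval, CPM an exact Poisson and shares an exact Clopper-Pearson interval. UMIs of 1 library are not replicates, and no p-value was computed. Functions were checked on simulated counts. Doublets were kept and, as an alternative, the highest Scrublet scores at 0.8% per 1000 barcodes left out (63 and 224 barcodes, scanpy 1.11.5). Python 3.11.15, NumPy 2.4.6, SciPy 1.17.1 and pandas 2.3.3 were used.

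All 9 members are named. Of each gene list, the measured genes past 1.5-fold between the libraries, up to 4 in each direction, are named, and genes of the lists in strongly induced cells were named after their values were seen. Some genes stand in more than 1 list. The members, lists and limits were chosen with earlier results of these data known. Promoter windows are of GRCm38.p6, and none of their coordinates was joined to the counts. Some items of the genotype and of the gene lists are not reported here.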

Additional observations from a re-analysis of the deposited data

How the results depend on the processing

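No paired analysis was possible because each group has 1 library. The count of members at least 1.5-fold lower dropped from 2 to 1 when cells with other leukocyte markers were also left out, when each cell was weighted equally and when strongly induced cells were left out; in each case Ifi27 stayed in it and Oasl1 fell below 5 CPM, with log2 ratios of -1.65, -1.41 and -3.06. The count of members at least 1.5-fold higher was 0 without strongly induced cells and 4 to 6 under the other 14 alternatives for it. With 250 CPM as the limit the strongly induced share of the CD9hi library was 2.47%, and with 1000 CPM it was 1.26%. Chosen by at least 3 of Irf7, Rsad2, Oasl1 and Usp18, the whole-tumour share was 0.907% in place of 0.355%, against 1.58% in the CD9hi library. The log2 ratio of each member kept its sign under all 13 alternatives for it, except Rsad2 and Usp18, which were lower in the CD9hi library without strongly induced cells. The ranges were 0.58 to 1.96 for Isg15, 1.98 to 2.59 for Ifit1, 2.10 to 3.37 for Ifit3, 0.02 to 1.23 for Irf7, -2.73 to -2.33 for Ifi27, -3.06 to -1.41 for Oasl1, 0.48 to 1.02 for Bst2, -2.56 to 1.82 for Rsad2 and -0.15 to 0.67 for Usp18. Leaving out the highest cell of each library, or cells with at least 1000 CPM of fibroblast markers, was chosen after seeing the data; under either, Ifit3 fell below 5 CPM and 4 members counted as higher. The median Vim level of the whole tumour is 0 CPM, so bins at the medians split cells by whether Vim was detected. With those bins the log2 difference of Vim-high from Epcam-high cells moved for several members. In the CD9hi library it was -0.92 for Ifi27 in place of -0.01 and -1.02 for Irf7 in place of 0.12. For Ifit1 it was -1.25 in place of 0.43, and for Ifit3 -1.70 in place of 0.08. In the whole tumour it was -2.41 for Oasl1 in place of -5.54 and -0.92 for Usp18 in place of -2.62. Whole-tumour values in the set rest on 9 cells, and causes of these changes were not tested.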

Other observations

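Some whole-tumour cells had several Oasl1 UMIs without being strongly induced. They were chosen by Oasl1, after the values were seen, so their share of it is a description. The 38 cells with at least 3 Oasl1 UMIs that were not strongly induced held 53.9% of all whole-tumour Oasl1 UMIs, and all 38 were under 1000 CPM of Vim. They had Irf7 at 26.8 CPM against 3.02 CPM in the remaining 2490 cells, Rsad2 at 8.59 against 1.49 CPM and Bst2 at 131 against 53.6 CPM. They had no UMI of Ifit1 or Ifit3, and Isg15 stood at 6.44 against 5.69 CPM. The rule that left strongly induced cells out uses these genes, so low values are partly fixed by the choice. The remaining cells had only 0.244 and 0.178 CPM of Ifit1 and Ifit3. The intervals of their log2 differences reached up to 4.27 and 4.82, so nothing is read from the lack of UMIs. Cxcl10 was at 4.29 against 19.4 CPM. Genes of gastric-type epithelium were high in the same cells: the trefoil factor gene Tff1 was at 14129 against 480 CPM with a UMI in 30 of 38 cells, the mucin gene Muc5ac at 218 against 9.13 CPM, Gkn1 at 476 against 31.6 CPM and Ly6d at 1536 against 40.7 CPM. These cells were deeper, at a median of 24875 against 17648 UMIs. The CD9hi library held 6 such cells, of which 2 were under 1000 CPM of Vim. Tff1 was at 53.4 against 7.28 CPM from 11 UMIs and Gkn1 at 38.8 against 3.74 CPM from 8 UMIs. Muc5ac and Ly6d had no UMI in them, against 0.326 and 2.28 CPM elsewhere. Irf7 was at 29.1 against 3.51 CPM, Bst2 at 228 against 76.4 CPM and Ifit1 at 72.8 against 0.858 CPM. Cxcl10, lower in the 38 whole-tumour cells, was at 4032 against 14.9 CPM here, with a UMI in 2 of 6 cells.

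Barcodes with a Ptprc UMI were left out above and are few, 13 in the whole tumour and 30 in the CD9hi library. Isg15 stood there at 22.6 CPM (6.16 to 57.9) and 70.4 CPM (50.5 to 95.5), Irf7 at 39.6 and 20.6 CPM, and Ifi27 at 215 CPM (152 to 295) and 77.2 CPM (56.3 to 103). Ifit3 had 0 UMIs in the former and 1 in the latter.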
